A study of Mus musculus with 3 samples.

Results

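Protamine-rich spermatids of adult mouse testis are described here as 2535 cell barcodes out of 14608 kept ones. A barcode belonged to them when Prm1, Prm2, Tnp1 and Tnp2 together made up 25% or more of its unique molecular identifiers (UMIs, tags that count each captured RNA molecule once). It also had to hold at least 3000 UMIs and at least 500 genes, with at most 10% of UMIs from mitochondrial genes. The 14608 kept barcodes met those last 3 limits alone, out of 33038 deposited ones. The cells were thus selected on the UMI share of these 4 genes, and the levels of the 4 are given as a description. The working name of the cells was late elongating spermatids. They carried the markers of elongating spermatids, but other barcodes carried more Tssk6, Spem2 and Lelp1, and the cells are therefore called by their leading genes.

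Elongating spermatids are haploid germ cells that condense the nucleus, build the tail and shed most of their cytoplasm. Histones on the DNA are replaced first by transition proteins (Tnp1, Tnp2) and then by protamines (Prm1, Prm2), small basic proteins that pack sperm DNA. Transcription stops as the chromatin closes, so that many messenger RNAs, those of the protamines among them, are stored bound to protein and translated days later.

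The series compared testes with a conditional knockout of Tex10, a gene for a nuclear protein known from ribosome assembly and from embryonic stem cells, with wildtype testes. Single-cell 3′ RNA libraries were made from adult mice of the C57BL/6N strain with a 10x Genomics Chromium kit. Wildtype replicate 1 and wildtype replicate 2 each came from 1 mouse, and the knockout library pooled testis cells of 2 conditional knockout mice. The Cre line and the floxed exons are not given in the sources used here, nor are the cells in which the gene was removed. With 1 knockout library no test between the groups was possible. Knockout values are set against both wildtype libraries, and intervals are 95% exact binomial (shares) or Poisson (counts) intervals that cover counting error only.

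Every set of 3 values is given in the order of wildtype replicate 1, wildtype replicate 2 and knockout. Total depth was 93418341, 96001773 and 147783171 UMIs. No barcode sequence of a selected cell occurred in the selected cells of another library. In the selected cells the median UMI total was 14856, 11970 and 21018, so the knockout cells were the deepest. Mitochondrial genes took a median of 0.0606%, 0.0869% and 0.0739% of their UMIs, against 0.493%, 0.370% and 0.449% over all kept barcodes. Tex10 itself was near the detection limit, with 34, 34 and 36 UMIs over all selected cells. This was 4.10 (2.84 to 5.72), 3.62 (2.51 to 5.06) and 2.80 (1.96 to 3.87) CPM, and the 3 intervals overlapped. CPM stands for counts per 1000000 UMIs of genes other than the 4, so that the large share of the 4 does not lower every other gene. A 3′ tag does not see the removal of an internal exon, so this level does not check the genotype.

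The promoters of the 4 genes that define the cells are shown because all 4 messenger RNAs reach very high levels in the same cells. Prm1, Prm2 and Tnp2 lie on the minus strand of chromosome 16 within one short stretch, together with Prm3, and Tnp1 lies on the minus strand of chromosome 1. The sequences are the 250 bases before the RefSeq transcript start on GRCm38.p6, read 5′ to 3′ along the gene, at chr16:10796824-10797073 (Prm1), chr16:10792106-10792355 (Prm2), chr1:73015900-73016149 (Tnp1) and chr16:10788656-10788905 (Tnp2). GENCODE M21 gives Prm1 and Prm2 longer gene spans that include these windows. Capitals mark matches to TGACNTCA, a form of the cAMP response element that the testis activator CREM binds, and to TATAA, the core of the TATA box, on either strand.
Prm1: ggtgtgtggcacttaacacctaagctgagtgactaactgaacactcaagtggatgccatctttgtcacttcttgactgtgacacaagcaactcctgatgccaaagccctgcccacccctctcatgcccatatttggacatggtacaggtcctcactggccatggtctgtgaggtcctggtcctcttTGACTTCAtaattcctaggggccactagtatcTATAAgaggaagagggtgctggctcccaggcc
Prm2: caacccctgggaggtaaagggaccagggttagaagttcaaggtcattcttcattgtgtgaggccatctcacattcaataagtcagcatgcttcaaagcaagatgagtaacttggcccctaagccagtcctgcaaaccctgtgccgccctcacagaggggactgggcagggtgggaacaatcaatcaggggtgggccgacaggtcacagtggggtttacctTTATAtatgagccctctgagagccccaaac
Tnp1: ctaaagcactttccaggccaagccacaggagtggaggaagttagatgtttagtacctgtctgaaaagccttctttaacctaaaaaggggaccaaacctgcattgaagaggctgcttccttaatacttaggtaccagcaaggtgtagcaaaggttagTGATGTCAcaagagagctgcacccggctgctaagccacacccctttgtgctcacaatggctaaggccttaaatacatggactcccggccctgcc
Tnp2: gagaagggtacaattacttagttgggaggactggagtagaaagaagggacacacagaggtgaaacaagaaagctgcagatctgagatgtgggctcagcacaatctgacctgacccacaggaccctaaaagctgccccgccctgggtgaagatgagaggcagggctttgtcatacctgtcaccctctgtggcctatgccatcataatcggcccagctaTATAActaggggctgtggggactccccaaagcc
TGACNTCA occurred in Prm1, where it began 64 bases before the start, and in Tnp1, 94 bases before the start on the other strand (TGATGTCA). TATAA occurred 32 bases before the start of Prm1, 33 before that of Tnp2 and, on the other strand, 30 before that of Prm2. Of 32851 windows of the same length before mouse RefSeq starts, 7.49% held TGACNTCA and 22.8% held TATAA on either strand. Each match is a description of the letters and no evidence of binding.

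The selected cells were a large class in every library. They numbered 737 of 3951 kept barcodes in wildtype replicate 1 (18.7%, 17.4 to 19.9), 985 of 4873 in wildtype replicate 2 (20.2%, 19.1 to 21.4) and 813 of 5784 in the knockout library (14.1%, 13.2 to 15.0). The knockout share was the lowest, and its interval did not reach that of either wildtype library. Barcodes with a 4-gene share of 5% or more numbered 1752 of 3951, 2133 of 4873 and 2490 of 5784 kept ones, a similar part of each library. Among them the selected cells made up 42.1%, 46.2% and 32.7%, again lowest in the knockout library. The lower knockout share thus concerned barcodes past the 25% limit, and not all barcodes at 5% or more. Genotype and the number of mice per library cannot be told apart here.

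**Figure D1:**
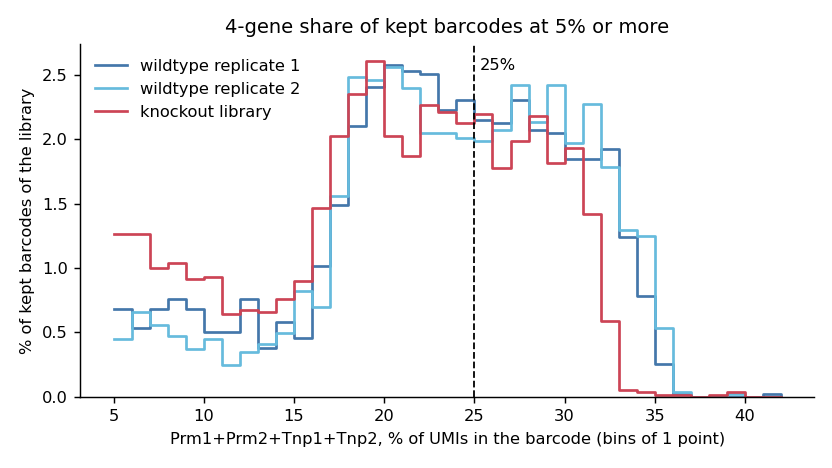
Share of UMIs taken by Prm1, Prm2, Tnp1 and Tnp2 (x axis, percent, in bins of 1 point) in kept barcodes at 5% or more, as a percentage of all kept barcodes of each library (y axis), with 1 line per library. The dashed line is the limit of 25%, which falls inside a broad plateau, and on the right the knockout line drops at a lower share than both wildtype lines, with 29.3% of its selected cells at 30% or more against 42.6% and 45.3%.

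The 25% limit cut through a continuum. Just inside it, between 25% and 26%, lay 86, 97 and 128 barcodes, and just outside, between 24% and 25%, lay 90, 98 and 124. Prm1 took 10.4%, 9.98% and 10.2% of UMIs just inside and 9.94%, 9.36% and 9.49% just outside, and the kinase gene Tssk6 stood at 3530, 3133 and 3352 CPM inside against 3339, 3145 and 3205 outside. The median 4-gene share of the selected cells was 29.3%, 29.6% and 28.5%. Cells at 30% or more made up 42.6% (39.0 to 46.3) and 45.3% (42.1 to 48.4) of the wildtype selected cells and 29.3% (26.2 to 32.5) of the knockout ones. The knockout library thus had fewer of the cells with the highest shares, as the plot of 4-gene shares shows.

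Prm1 was the most abundant of the 4 messenger RNAs. It took 12.7%, 12.8% and 11.6% of all UMIs of the selected cells, Prm2 8.53%, 8.29% and 8.78%, Tnp2 4.96%, 5.15% and 4.81%, and Tnp1 3.50%, 3.73% and 3.63%. Among the UMIs of the 4 genes, Prm1 held 42.8% in both wildtype libraries and 40.2% in the knockout library, while Prm2 held 28.7%, 27.6% and 30.5%. Prm1 was lower and Prm2 higher in the knockout library than in both wildtype libraries. Protamine UMIs outnumbered transition protein UMIs by 2.51, 2.38 and 2.41 to 1, with the knockout value between the wildtype values (wildtype mean 2.45 ± 0.0932, SD, n = 2).

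The markers of the cell type were all high. Tssk6, a testis-specific serine kinase needed for chromatin condensation, stood at 3516, 3049 and 3452 CPM and was found in 100% of the selected cells of each library. Lelp1 stood at 1091, 1341 and 1184 CPM, and Spem2 at 509, 514 and 498 CPM. Prm3, the protamine-like gene between Prm2 and Tnp2, stood at 5288, 5521 and 5637 CPM. The knockout value lay between the wildtype values for Tssk6 and Lelp1, just under both for Spem2 and just above both for Prm3, and none of these genes reached a 2-fold difference.

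Free RNA in the suspension gives a floor for such shares. In 119, 101 and 130 kept barcodes marked by Leydig or myoid genes, which should lack spermatid transcripts, the 4 genes took 0.841%, 1.10% and 0.563% of UMIs, and Tssk6 was seen in 61.3%, 48.5% and 67.7% of barcodes at 139, 183 and 99.5 CPM. Their median UMI totals were 6379, 5668 and 8045, below those of the selected cells. The levels in the selected cells were far above this background. Marker genes of other cell types were mostly low in them. The 6 Leydig markers summed to 2.53, 2.66 and 3.11 CPM, the 5 myoid markers to 7.35, 7.34 and 6.45 CPM, and the 4 red cell genes to 0, 0.106 and 0.155 CPM. The 6 Sertoli markers summed to 67.7, 43.3 and 62.4 CPM, below the 91.9, 71.6 and 179 CPM of all kept barcodes. The 3 endothelial markers summed to 5.66, 6.38 and 4.82 CPM, against 5.01, 4.59 and 7.73 CPM over all kept barcodes. The 6 round spermatid markers summed to 428, 398 and 351 CPM, led by Spata25, below the 861, 1032 and 914 CPM of all kept barcodes. The 5 macrophage markers reached 58.1, 52.7 and 66.5 CPM, nearly all of it from C1qb at 57.4, 52.7 and 64.5 CPM, which is higher than the 33.7, 22.5 and 52.2 CPM of the list over all kept barcodes.

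The composition of the 4 genes showed 2 limbs, which the plot of transition protein share against 4-gene share displays. Most selected cells carried about the same balance of transition proteins to protamines over a wide range of 4-gene shares. Near the highest 4-gene share this balance was lower, and from there the other limb of points ran at lower transition protein shares back to 25%. Below 25% this limb went on into barcodes that held hardly any Tnp1 or Tnp2. The order of the cells in time was not tested. Cells were therefore also described in 3 strata of Tnp1 plus Tnp2 as a share of the 4 genes, called transition-rich (30% or more), intermediate, and transition-poor (under 10%).

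**Figure D2:**
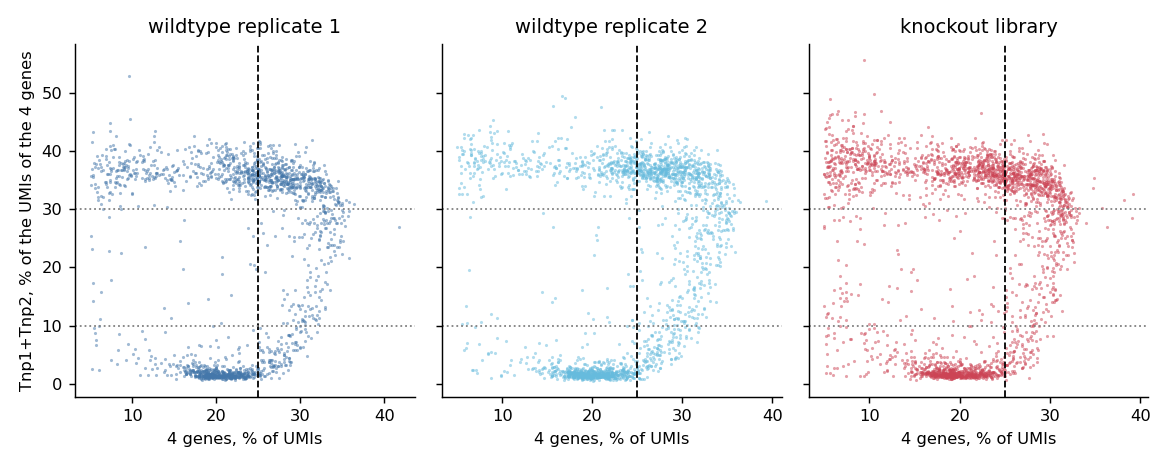
Tnp1 plus Tnp2 as a percentage of the UMIs of the 4 genes (y axis) against the 4-gene share of all UMIs in percent (x axis), 1 point per kept barcode at 5% or more and 1 panel per library. The dashed line is the 25% limit and the dotted lines are the stratum limits at 10% and 30%. In all 3 libraries the points form an arc whose right-hand edge is the bend between the limbs.

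Transition-rich cells were the majority of the selected cells, at 62.4% (58.8 to 65.9), 61.7% (58.6 to 64.8) and 59.8% (56.3 to 63.2), with overlapping intervals. Intermediate cells made up 21.8%, 24.9% (22.2 to 27.7) and 29.4% (26.3 to 32.7), and transition-poor cells 15.7% (13.2 to 18.6), 13.4% (11.3 to 15.7) and 10.8% (8.77 to 13.2). The knockout library had the most intermediate and the fewest transition-poor cells among the selected ones, but in both strata its interval overlapped that of wildtype replicate 2. The median 4-gene share was highest in the intermediate stratum, at 32.1%, 31.6% and 30.1%.

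From the transition-rich to the transition-poor stratum the share of the transition proteins was lower and that of Prm2 higher. Tnp1 fell from 14.0%, 14.7% and 14.1% of the 4 genes in transition-rich cells to 1.36%, 1.61% and 2.12% in transition-poor cells, and Tnp2 from 21%, 21.3% and 20.7% to 3.56%, 4.03% and 3.61%. These falls follow from how the strata were made. The balance of Prm2 to Prm1 also differed between the strata. Both genes are part of the rule and of the stratum share, so their balance is a description too. Prm2 UMIs per Prm1 UMI were 0.599, 0.585 and 0.723 in transition-rich cells, 0.677, 0.664 and 0.768 in intermediate cells and 0.990, 0.943 and 0.956 in transition-poor cells. In the first 2 of these strata the knockout ratio was above both wildtype ratios, by 0.27 and 0.31 and by 0.18 and 0.21 on the log2 scale, while the wildtype libraries differed by 0.03. In transition-poor cells the knockout ratio lay between the wildtype ratios.

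**Figure D3:**
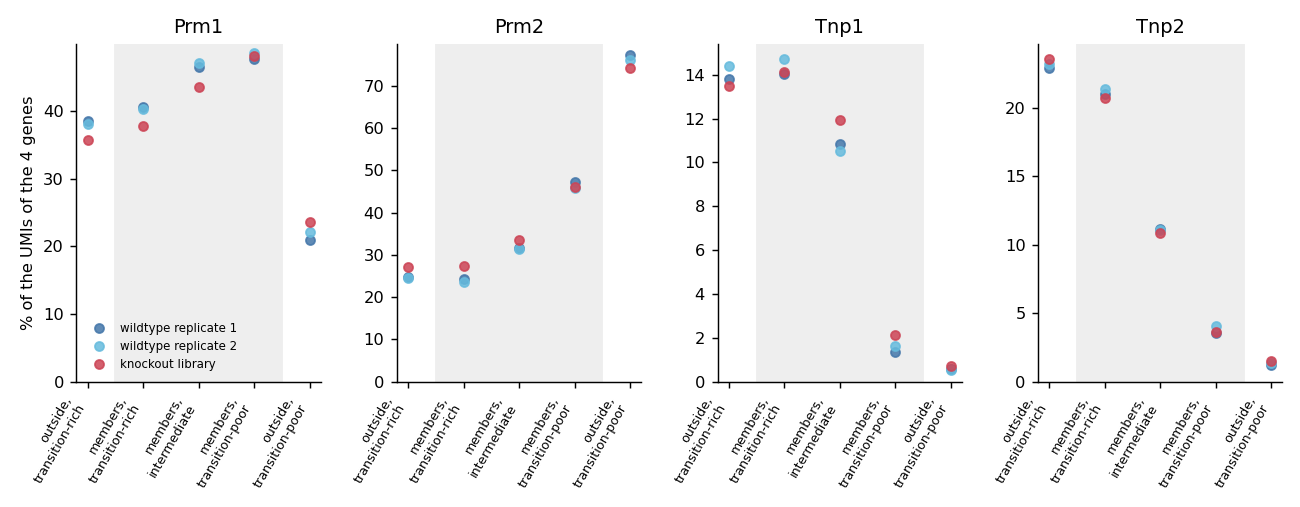
Share of each of the 4 genes in their summed UMIs (y axes, percent, each from 0) in 5 groups of barcodes, with 1 point per library. The shaded groups are the 3 strata of the selected cells, and the outer groups are barcodes with a 4-gene share of 5% to 25%. Prm1 peaks in transition-poor selected cells, where it takes 47.8%, 48.6% and 48.2%, and Prm2 takes most of the transition-poor group outside.

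Barcodes with a 4-gene share of 5% to 25% belonged to both limbs. They included 469, 434 and 910 transition-rich barcodes and 518, 685 and 679 transition-poor barcodes in which Prm2 made up 77.2%, 76.0% and 74.2% of the 4 genes. The second group held more Tssk6, Spem2 and Lelp1 than the selected cells did, but less Prm3, which stood there at 4203, 4373 and 4212 CPM against 5288, 5521 and 5637 CPM. Tssk6 rose from 1660, 1425 and 1739 CPM in the transition-rich barcodes outside, to 2997, 2586 and 3118 in transition-rich selected cells, to 5249, 4597 and 4781 in transition-poor selected cells and to 8123, 6785 and 7512 in the transition-poor barcodes outside. Spem2 took the same order, with 331, 299 and 309 CPM in the first and 1407, 1329 and 1352 CPM in the last of these groups. Oaz3, a testis antizyme of polyamine metabolism, did too, from 928, 966 and 982 to 3928, 3747 and 3537 CPM. The median UMI total of the last group was 7322, 6270 and 10075, below that of every stratum of the selected cells. By the levels of Tssk6, Spem2 and Lelp1 the selected cells thus lay between these outside groups, and the word late in the working name is not used for them.

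Relative to the barcodes at 5% to 25%, taken as a whole, the selected cells had far more genes lower than higher. Of 4930 genes, 21 were at least 2-fold higher in all 3 libraries (0.426%) and 1391 at least 2-fold lower (28.2%). Cyp2a12, a cytochrome P450 gene, led the higher ones with 202, 224 and 256 CPM against 73.3, 75.4 and 102. The kallikrein protease genes Klk1, Klk1b8 and Klk1b3 were among them, with Klk1b8 at 1202, 1361 and 1171 CPM against 489, 554 and 501. Defb33, a beta-defensin, was at 537, 588 and 557 CPM against 218, 226 and 263. The lower genes included Malat1, a nuclear long noncoding RNA, at 33.6, 30.3 and 55.5 CPM against 376, 381 and 530, Cd46, which lies on the acrosomal membrane, at 2.29, 2.13 and 2.87 CPM against 49.1, 38.3 and 40.1, and Fam209 at 72.5, 67.1 and 47.5 CPM against 851, 668 and 692. The comparison set mixes both limbs, and its myoid gene Acta2, at 23.6, 46.8 and 22.3 CPM against 1.45, 2.34 and 0.466, shows some content of other cells. Every gene of the cells is tied to the choice through the 4 genes, so this contrast is a description.

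Among the selected cells themselves, transition-poor cells differed from transition-rich cells mainly by lower transcript levels. Of 3882 genes, 666 were at least 2-fold lower in all 3 libraries (17.2%) and 0 at least 2-fold higher. At 1.5-fold, 1053 fell and 129 rose, and 230 genes fell at least 4-fold. Some genes of histone replacement were among the 666. H2al3, an H2A-like variant gene, went from 1129, 1041 and 865 CPM to 38.4, 33.8 and 35.8. Hils1, a linker histone of elongating spermatids, went from 2326, 2331 and 1737 CPM to 350, 279 and 326. Phf7, a histone ubiquitin ligase of the histone-to-protamine exchange, went from 2106, 1991 and 2343 CPM to 143, 168 and 173. The chromatin remodeller Chd5 went from 206, 258 and 295 CPM to 75.8, 79.5 and 126. Hils1 was the only gene called lower among 6 testis histone variants measured, whose median log2 difference was 0.08, -0.01 and -0.01 against -0.20, -0.16 and -0.13 over all genes tested. Chd5, Cdyl and Phf7 were called lower among 10 chromatin exchange regulators.

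Of 16 measured genes of head shaping, the manchette and the perinuclear theca, 6 were called lower, beside 17.2% of all genes tested, and the other 10 were not called. The 6 were Rimbp3, Meig1, Spag4, Cylc1, Ccin and Capza3. Meig1, needed for manchette transport, went from 10971, 10745 and 8487 CPM to 1435, 1614 and 1399. Spag4, a SUN domain gene of the nuclear envelope, went from 1041, 925 and 741 CPM to 59.8, 58.6 and 76.2. The median log2 difference of this list was -0.87, -0.81 and -0.76, against -0.20, -0.16 and -0.13 over all tested genes. It was lower than the all-gene median in every library.

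Lists of tail, energy and acrosome genes held between 1 and 3 lower calls each, beside 17.2% of all genes tested. In the outer dense fibre and fibrous sheath list 3 of 13 genes were called lower, namely Odf3, Akap3 and Ropn1, in the mitochondrial sheath list 2 of 12 (Spata19, Cox7a2), in the glycolysis list 1 of 12 (Ldhc), in the axoneme list 1 of 12 (Tekt5) and in the acrosome list 1 of 14 (Spaca7). Ldhc, the germ cell lactate dehydrogenase, went from 5546, 5362 and 3676 CPM to 1567, 1747 and 1535. Smcp, a cysteine-rich protein of the sperm mitochondrial capsule, stood at 3827, 5236 and 5209 CPM in transition-rich and 6404, 9005 and 8095 CPM in transition-poor cells. The median log2 differences were 0.43, 0.19 and 0.16 for the fibre list, 0.31, 0.32 and 0.21 for glycolysis and -0.20, -0.06 and -0.10 for the mitochondrial sheath. Lower calls were also made for Tssk1 and Tssk2 among 5 testis-specific serine kinases and for Ybx3 among 8 translation control genes. Of 69 cytosolic ribosomal protein genes 15 were called lower, near the 17.2% of all genes, and the list's median log2 difference was 0.35, 0.32 and 0.28. No list had a gene called higher.

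Genes that gained ground did so by less. Nrd1, which encodes the protease nardilysin, stood at 450, 527 and 671 CPM in transition-rich and 972, 1052 and 1376 CPM in transition-poor cells. Oaz3 went from 1359, 1457 and 1402 to 2956, 2924 and 2640 CPM, and the glycolytic gene Aldoa from 291, 297 and 302 to 574, 547 and 532 CPM. Since CPM is a share, a transcript that is kept while others are lost gains in CPM, and the values do not separate the 2. The median UMI total fell from 16384, 12937 and 23348 in transition-rich to 13202, 10518 and 17675 in transition-poor cells.

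Bands of the 4-gene share were compared in the same way. When the selected cells were cut at the wildtype tertiles of 28.0% and 31.1%, the top band held 234, 340 and 114 cells, or 31.8%, 34.5% and 14.0% of them. Of 3850 genes, 223 were at least 2-fold lower in the top than in the bottom band in all 3 libraries (5.79%) and 0 were higher. Ccdc185, a coiled-coil gene, led them with 347, 383 and 132 CPM in the bottom and 12.9, 12.5 and 10.4 CPM in the top band. Cdyl, a chromodomain gene of chromatin repression, stood at 491, 555 and 224 CPM against 47.1, 43.8 and 23.3 CPM, and Ybx3, a Y-box protein that binds stored messenger RNA, at 1505, 1557 and 983 CPM against 176, 199 and 134 CPM. In the bottom band the knockout library was lower than both wildtype libraries for these 3 genes.

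Between genotypes the selected cells were alike for most genes. A gene was called when the knockout library differed at least 2-fold in the same direction from each wildtype library, after 1 CPM had been added to every value. The smaller of both log2 ratios also had to be 2 or more times the one that separates the wildtype pair, and 20 CPM had to be reached in 1 library or more. Of 3537 genes, 76 were called in the knockout library (2.15%), 30 of them higher (0.848%) and 46 lower (1.3%). When wildtype replicate 1 was treated as if it were the knockout library 0 genes were called, and for wildtype replicate 2 the only one was AY036118. The median log2 ratio was -0.04, and 91.9% of genes lay within 1.5-fold of the wildtype mean. Of the 76 genes, 43 are protein-coding, 14 are antisense and 14 are long intergenic noncoding RNA genes.

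**Figure D4:**
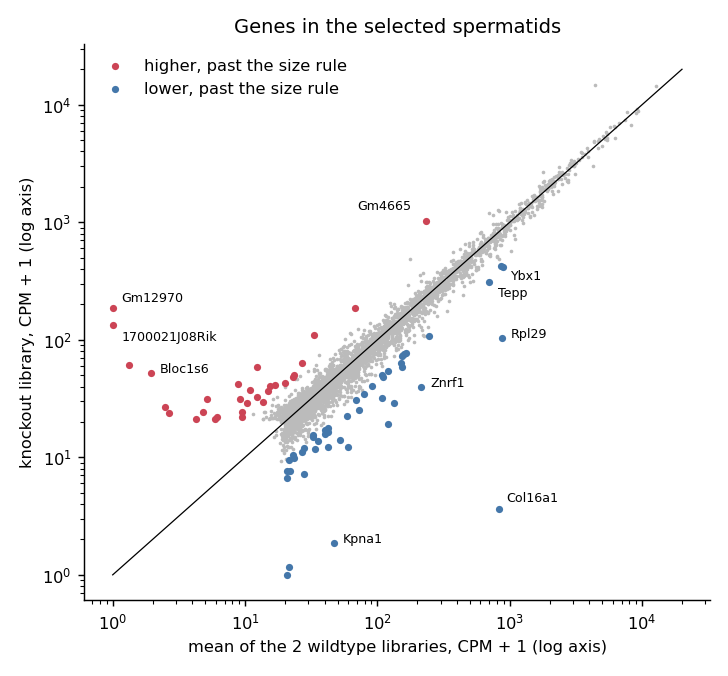
CPM plus 1 in the selected cells of the knockout library (y axis, log scale) against the mean of the 2 wildtype libraries (x axis, log scale), 1 point per gene tested. The line marks equal values, coloured points are the 30 higher and 46 lower genes past the size rule, and the genes farthest from the line are Col16a1 below it and Gm12970 and 1700021J08Rik above it.

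The highest ratios belonged to noncoding transcripts. Gm12970, annotated antisense to Sdc3 on chromosome 4, had 0, 0 and 2398 UMIs, which is 186 CPM (179 to 194) in the knockout library. Set against a floor of 3 counts per wildtype library, this was at least 515-fold and at least 583-fold higher. Sdc3, the syndecan gene on the opposite strand, had 1, 2 and 207 UMIs. The use of strand in counting is not stated in the sources used here. Whether reads of either gene of this overlapping pair were counted for the other was not tested.

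A pair of further chromosome 4 transcripts behaved alike. 1700021J08Rik, antisense to Hectd3, had 0, 0 and 1707 UMIs, at least 367-fold and at least 415-fold higher in the knockout library against the same floor. Hectd3 had 2, 0 and 18 UMIs, and the assignment of reads within this overlapping pair was not tested either. The long noncoding RNA gene 4930515B02Rik had 2, 4 and 776 UMIs, which is 0.241 (0.0292 to 0.871), 0.426 (0.116 to 1.09) and 60.3 (56.1 to 64.7) CPM. All 3 noncoding transcripts, Gm12970 included, were nearly absent from both wildtype libraries.

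Higher protein-coding genes were fewer among the largest ratios. Bloc1s6, a subunit of the complex that builds lysosome-related organelles, stood at 0.843, 1.06 and 51.5 CPM. Pccb, a subunit of the mitochondrial enzyme propionyl-CoA carboxylase, stood at 8.56, 7.02 and 41.2 CPM. In both, the knockout library was above both wildtype libraries, whose Poisson intervals overlapped each other. Among the 10 higher genes with the largest ratios, the others were 4930429P21Rik, Gm34756, Gm41206, Gm28111 and Gm35554, with knockout levels between 20.2 and 57.1 CPM. The most abundant higher transcript, named here after its value was seen, was Gm4665, antisense to Osbpl10 on chromosome 9, at 226, 236 and 1020 CPM. Its partner Osbpl10 stood at 74.1, 72.2 and 78.6 CPM, and the assignment of reads within this pair was not tested.

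Col16a1 showed the largest fall. This gene of a fibril-associated collagen (chromosome 4, 130047840 to 130099283, plus strand, protein-coding) had 861 (842 to 882), 792 (775 to 811) and 2.64 (1.83 to 3.69) CPM, against a wildtype mean of 827 ± 48.8 (SD, n = 2). The knockout library was far below both wildtype libraries, with log2 ratios of -7.89 and -7.77. Within the wildtype cells it was highest in the transition-rich stratum, at 1213 and 1110 CPM, and fell to 62.4 and 34.8 CPM in the transition-poor stratum, whereas the knockout values were 2.59, 3.03 and 1.84 CPM along the 3 strata.

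The other large falls were spread over chromosomes. Kpna1, an importin alpha that carries proteins into the nucleus, stood at 45.4, 46.3 and 0.854 CPM. Znrf1, an E3 ubiquitin ligase, stood at 208, 216 and 38.8 CPM. Rpl29, a protein of the large ribosomal subunit, stood at 839, 893 and 103 CPM. In all 3 the knockout library was below both wildtype libraries, which lay close to each other. Of the last 500 bases of Rpl29 transcripts, 57.7% of the words of 31 bases also occur in other annotated genes, so its counts depend on how shared reads were assigned. The same holds for Gm8797 at 93.0%, Gm15114 at 100% and Gm15097 at 86.8%, and for the last of these the knockout library had 0 UMIs against 156 and 194, at least 80.7-fold and at least 88.6-fold lower against the floor. The remaining genes of the 10 largest falls were 1700080G11Rik, Gm27002 and 4930547E14Rik, noncoding transcripts whose log2 ratios lay between -2.34 and -1.88. The last 500 bases of Gm27002 overlap the span of Osbpl10 on the same strand, the gene to which Gm4665 is antisense.

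The called genes were unevenly placed. Chromosome 4, which carries Tex10, held 23 of them among 235 tested genes (9.79%), 12 higher and 11 lower, and chromosome 9 held 17 among 201 (8.46%), 7 higher and 10 lower. On chromosome 14 there were 6 of 150 (4%), and every other chromosome was at 2.61% or below. The chromosome 4 genes ranged from position 12027505 to 152477871, most of the chromosome, and those of chromosome 9 from 87022014 to 122693642. Chromosome 4 as a whole took 7.49%, 7.54% and 7.38% of the UMIs of other genes. The labels give 1 strain for all mice, but the background of the knockout mice cannot be checked from them. The part of strain background in these positions was not tested.

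The called genes were also read stratum by stratum. All 3 strata come from the same 3 libraries, so they are no independent check. By stratum, 92 of 3630 genes were called in transition-rich cells (2.53%), 58 of 3420 in intermediate cells (1.7%) and 59 of 3316 in transition-poor cells (1.78%). Of the 30 higher genes 8 were past the rule in each stratum, with Gm12970, 1700021J08Rik, Gm4665 and Camk2n1 among them, and of the 46 lower genes 17, with Col16a1, Kpna1, Rpl29 and Znrf1 among them. A further 6 higher and 19 lower genes were past it in transition-rich cells alone, and the rest in other combinations or in none. All 30 higher genes were above both wildtype libraries in each stratum, and 46, 41 and 39 of the 46 lower genes were below both.

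Cdyl, Ybx1 and Ccdc185 were past the rule in transition-rich cells alone. Cdyl stood at 235, 251 and 107 CPM over all selected cells, and at 336, 357 and 148 CPM in transition-rich cells. In intermediate cells it was at 35.7, 43.6 and 27.3 CPM and in transition-poor cells at 18.7, 26.8 and 27.5 CPM. Among the strata of the selected cells, the libraries were thus farthest apart in the transition-rich one, where Cdyl was most abundant. In transition-rich barcodes below 25%, where it was more abundant still, they were close, as given below. Ybx1, a Y-box RNA-binding protein, stood at 1189, 1176 and 533 CPM in transition-rich cells but at 154, 188 and 184 CPM in transition-poor cells. Ccdc185 stood at 215, 218 and 78.5 CPM and at 11.6, 10.9 and 13.8 CPM in the same strata. In transition-rich barcodes below 25%, Cdyl was at 671, 644 and 677 CPM, Ybx1 at 2006, 1990 and 2379 CPM and Ccdc185 at 607, 541 and 591 CPM, with the knockout library not below both wildtype libraries. With strata given equal weight Cdyl had a log2 ratio of -1.0 against -1.18 and narrowly missed the rule, which 59 genes passed (27 higher and 32 lower), whereas without transition-rich cells its ratio was -0.28. With 4-gene bands given equal weight it was -1.38, past the rule. When only transition-rich cells were used, 28 higher (0.771%) and 64 lower (1.76%) genes were called. The position of cells along the limb within a stratum and its part in these values was not tested.

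**Figure D5:**
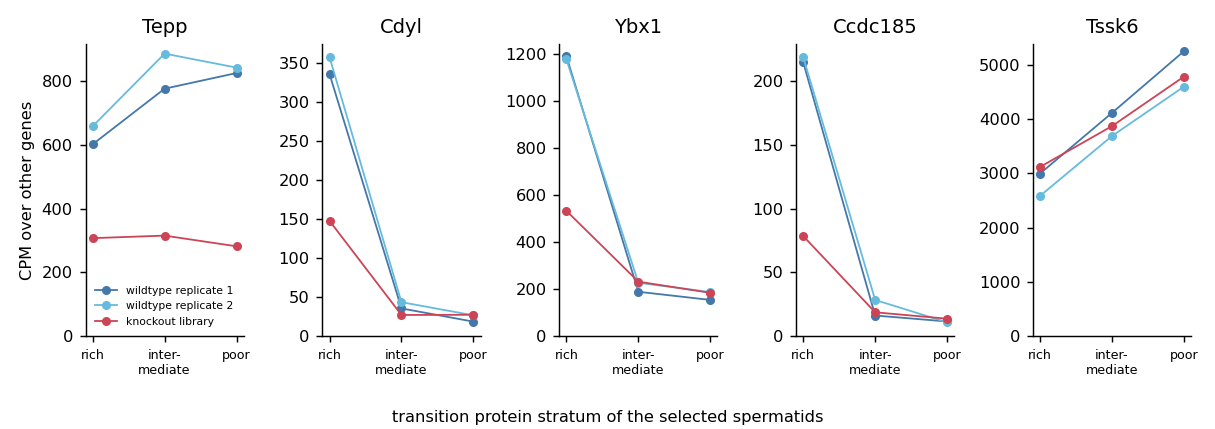
CPM over UMIs of genes other than the 4 (y axes, each from 0) in transition-rich, intermediate and transition-poor selected cells (x axis), with 1 line per library. Tepp is lower in the knockout library along all strata, Cdyl, Ybx1 and Ccdc185 are lower in transition-rich cells and nearer the wildtype libraries in transition-poor cells, and Tssk6 rises with the libraries close together.

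Tepp, named here after its values were seen, took another course. This testis-expressed gene stood at 601, 658 and 307 CPM in transition-rich, 775, 885 and 315 CPM in intermediate and 824, 841 and 282 CPM in transition-poor cells. It was higher after the first stratum in both wildtype libraries and flat in the knockout library. Its value there was below both wildtype values in each stratum, and it was past the rule in the last 2.

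With 2.15% of all tested genes called, lists of this size hold few or no calls, and their counts say little by themselves. None was called in 6 testis histone variants, 5 testis-specific serine kinases, 13 genes of the ubiquitin system and cytoplasm removal, 13 of the outer dense fibre and fibrous sheath, 12 of the mitochondrial sheath, 14 of glycolysis, 15 of the axoneme, 17 of the acrosome and fertilization and 18 of head shaping, counting genes at 5 CPM or more in a library. Genes under 20 CPM could not be called, so that of these lists 4 kinases, 12 ubiquitin system genes, 12 glycolysis, 8 axoneme, 14 acrosome and 16 head shaping genes were tested. Their median log2 ratios ran from -0.21 (mitochondrial sheath) to 0.03 (glycolysis), beside -0.03 over 6763 genes at that level. Cdyl was the only call among 10 chromatin exchange regulators, and 0 of 8 translation control genes tested were called. Tssk6, the fixed marker, and the structural genes Odf2 (6025, 6156 and 6602 CPM) and Gpx4 (6625, 6690 and 6973 CPM) differed little.

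Some uncalled list genes still lay outside both wildtype values. Those named here had the highest or lowest log2 ratio of their list. Such a position was common, since 3008 of 6763 genes at 5 CPM or more lay below both wildtype values and 2295 above both. Psme4, the proteasome activator that serves the breakdown of acetylated histones, stood at 126, 123 and 204 CPM, a log2 ratio of 0.71 against the wildtype mean. Ubb, a polyubiquitin gene, stood at 1905, 1675 and 2646 CPM. Both were higher in the knockout library in every stratum, and neither reached 2-fold. On the other side, Ldhc stood at 4289, 4224 and 3010 CPM and Tssk1 at 514, 487 and 306 CPM. Both were lower in transition-rich cells, with Ldhc at 5546, 5362 and 3676 CPM and Tssk1 at 735, 688 and 427 CPM, while in transition-poor cells Tssk1 stood at 52.6, 59.6 and 54.1 CPM. The sperm surface gene Tmem95, needed for fusion with the egg, had the lowest log2 ratio of the acrosome list, at -1.49, and its counts were too low for the rule.

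Ribosomal protein genes were slightly lower as a group. Rpl29 was the only call among 74 measured genes, with a list median of -0.17 against -0.03 over all genes. Of the 74, 56 were below both wildtype libraries and 6 above both, whereas of all 6763 genes 3008 were below and 2295 above. Such a shift was not particular to these genes. The median was -0.21 for the mitochondrial sheath, with 8 of 12 genes below both wildtype libraries and 1 above both. It was -0.20 for the acrosome list, with 12 of 17 below and 1 above. For testis histone variants it was -0.16, with 4 of 6 below and 1 above. Other lists lay nearer the all-gene median or above it. The ribosomal list summed to 50392, 51430 and 44888 CPM. Gm42418, a chromosome 17 transcript that overlaps ribosomal RNA sequence, stood at 5634, 3147 and 14576 CPM, and its part in this was not tested. It was not past the rule because the wildtype libraries differed. Without it in the CPM, 74 genes were called, 30 higher and 44 lower. Of the named partners of Tex10, Wdr18 alone reached 5 CPM, at 10.7, 10.3 and 11.7 CPM.

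Gene number per cell at equal depth was slightly lower in the knockout library than in both wildtype libraries. Unthinned, the median was 2240, 2025 and 2656 genes. After each cell was thinned to 1000 UMIs of genes other than the 4, which left out 0 cells, it was 586 (quartiles 551 to 611), 588 (559 to 618) and 574 (548 to 601). The quartile ranges overlapped widely, but cells are not replicates, and the wildtype medians lay closer to each other than to the knockout median. At 2000 UMIs the medians were 921, 929 and 904. At a 4-gene share of 20% or more, thinned to 1000 UMIs, they were 581, 583 and 583, so the difference depended on the limit. By the mean over the 3 libraries, the most abundant transcripts outside the 4 genes were Dbil5, a testis acyl-CoA binding protein, at 12938, 12353 and 14280 CPM, then Eif1, Gm5617, Fabp9 and Gsg1, each at 7439 CPM or more in every library. In the knockout library Gm42418, at 14576 CPM, was above Dbil5.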

How the data were processed

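Single-cell 3′ RNA was measured in 2 wildtype libraries and 1 Tex10 knockout library. The deposited values are raw UMI counts per gene and barcode for 32285 genes, with Cell Ranger 4.0.0, Seurat 4.0.5 and the build mm10 named in the submitters' processing notes. Whether strand was used is not given in the sources used here. Members and gene lists were chosen with earlier results of these data known. The stratum limits of 30% and 10% and the alternatives by stratum, without Gm42418 and over barcodes at 5% or more were chosen after the data had been seen.

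UMIs were summed over the selected cells of each library and scaled to CPM over genes other than Prm1, Prm2, Tnp1 and Tnp2 (numpy 2.4.6, pandas 2.3.3, scipy 1.17.1). Gene positions came from GENCODE M21 by Ensembl identifier (32158 of 32285 matched), and shared 3′ ends were read in words of 31 bases over the last 500 bases. All 4 promoters of the defining genes matched RefSeq. The size rule was run on simulated Poisson counts around a shared wildtype profile, with some genes changed in the simulated knockout library. The simulation held counting error alone and no differences between mice or libraries. It therefore cannot show how often the rule calls genes through such differences. Named genes were the 4 genes, the fixed markers, Prm3, Tex10, the 10 higher and 10 lower genes with the largest ratios in each contrast, the 5 most abundant genes, called list members and the 4 most abundant members of each list. Genes named beyond this were chosen after their values were seen: Gm4665, Tepp, Ybx1, Camk2n1, Trim80, Psme4, Ubb, Tmem95, Gm42418 and AY036118, the antisense partners, and the genes named along the strata.

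Doublets were not removed. Scrublet in scanpy 1.11.5 marked 40, 100 and 5 kept barcodes with its automatic threshold, too few in the knockout library to be used, so an alternative left out the top 8% of scores per library, which held 27, 54 and 34 of the selected cells. Depth was 11808829, 13430056 and 18083808 UMIs over the selected cells. No p-value is given, because cells are not replicates.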

Additional observations from a re-analysis of the deposited data

Results flagged for a closer look

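A few called genes had the opposite sign elsewhere in the same libraries, in barcodes at 5% to 25%. There 38 of the 76 called genes were past the rule in the same direction and 0 in the opposite direction. In the selected cells Ccdc185 had a log2 ratio of -1.35 against the nearer wildtype library, Ybx1 of -1.01, Trim80 of -1.05 and Cdyl of -1.13. In barcodes with a 4-gene share of 5% to 25% all 4 genes were higher in the knockout library than in both wildtype libraries. Ccdc185 stood there at 416, 340 and 426 CPM, Ybx1 at 1465, 1345 and 1872 CPM, Trim80 at 317, 279 and 325 CPM and Cdyl at 462, 406 and 491 CPM. Those barcodes mix transition-rich and transition-poor ones, with 46.2%, 37.8% and 54.3% transition-rich. In the transition-rich ones alone Ccdc185 stood at 607, 541 and 591 CPM and Trim80 at 451, 431 and 445 CPM, with the knockout value between the wildtype values for both. For Ybx1 and Cdyl the knockout value stayed above both wildtype values there, as given above. The difference between the 2 sets of cells was not tested, since the knockout group is 1 library.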

How the results depend on the processing

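The lower share of selected cells in the knockout library kept its direction in every alternative run. The difference of -5.38 percentage points from the wildtype mean became -3.71 with at least 1000 UMIs, -3.45 with at least 5000 UMIs and -11.5 over barcodes at 5% or more, and ran from -6.16 to -4.60 with either wildtype library left out. The difference in thinned genes per cell, -13.0, became 1.0 at a 4-gene share of 20% or more, -9.5 with at least 5000 UMIs and -21.0 when thinned to 2000 UMIs. Called genes numbered 179 without a filter on CPM, 23 at 100 CPM or more and 239 at 1.5-fold, and 88 to 94 with 1 wildtype library left out. At a share of 20% or more 31 higher and 32 lower genes were called, against 30 and 46. With either wildtype library left out, the median 4-gene share differed by -1.08 to -0.776 points, genes per cell by -14.0 to -12.0, and the log2 protamine to transition protein ratio by -0.06 to 0.02, so its sign is not fixed. The other alternatives of these results stayed within the wildtype spread or within 1.5 times the main count. Cdyl, at -1.18, lost its call at 20% or more (-0.24), without transition-rich cells (-0.28) and, with strata weighted equally (-1.0), and kept it with 4-gene bands weighted equally (-1.38). With CPM over all UMIs 54 genes were called, and 4930429P21Rik, Gm34756, Gm28111, Gm15097 and Gm15114 were not among them. Calls were also lost for Gm28111 at 20% or more and with the mean of per-cell CPM, Gm15097 without wildtype replicate 2, Gm15097 and Gm15114 in transition-rich cells alone, Gm41206 without those cells, and 13 of the 21 named genes at 100 CPM or more. The cause of these changes was not tested. No paired analysis was possible because the knockout group has 1 library. Genes under 20 CPM were not judged, and 1 knockout library leaves every genotype value without a replicate.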
